A study of Mus musculus with 16 samples.

Results

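RNA levels of 10 genes for secreted chemokines and cytokines were followed in 16 libraries of C2C12 cells, mouse myoblasts that stop dividing and form myotubes in low serum. The members were *Cxcl14*, *Cxcl12*, *Cxcl1*, *Cxcl5*, *Cxcl10*, *Ccl2*, *Ccl7*, *Ccl5*, *Il6* and *Csf1*, 10 of the 49585 genes of each count table, and each was found by its Ensembl identifier in both. They were chosen by name from chemokine and cytokine genes with the CPM of these 16 libraries and earlier tests already known, among them the difference of *Cxcl14* at d8 between WT and AMPK-KO. Their values and adjusted p are therefore a description, and they are no independent evidence for any direction. Both tables hold raw read counts of total RNA depleted of ribosomal RNA, and levels are given here as CPM, the counts of a gene scaled to 1 common library total.

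The first table compared WT with AMPK-KO cells, in which both genes for the catalytic subunit of AMP-activated protein kinase, *Prkaa1* and *Prkaa2*, were cut by CRISPR/Cas9. Cells were taken at d0, as myoblasts in medium with fetal bovine serum, and at d8 of differentiation in medium with horse serum, with 2 libraries in each of the 4 groups. In the second table all cells lacked AMPK and were d0 myoblasts, and they carried a FLAG- and BirA-tagged *Tet2* knocked in at its own locus. TET2-WT kept the serine at the site that AMPK phosphorylates, and TET2-S97E carried a glutamate there as a mimic of phosphorylation. Each genotype had 2 clones of 2 libraries, so that 4 libraries of a genotype stand for 2 clones, and the 2 tables were normalized and tested apart. The labels do not say whether libraries of a group came from separate cultures, so p-values measure the spread between libraries, which may be technical. More than 1 AMPK-KO line was used in the study, and the labels do not say which line gave which library, so differences between AMPK-KO replicates and differences between lines cannot be told apart. Total counts ran from 17883417 to 24663079 in the first table and from 19801909 to 37790358 in the second, and at these depths a gene at 3 counts or fewer was treated as not detected.

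The targeted genes were read first. *Prkaa1*, the ubiquitous catalytic subunit, stood at 159 and 159 CPM in WT d0 and at 79.7 and 78.0 CPM in AMPK-KO d0, and it was lower in AMPK-KO at both days (adjusted p = 0.0116 at d0 and 0.0419 at d8, edgeR's quasi-likelihood test). *Prkaa2*, the form typical of muscle, stood at 6.23 and 10.1 CPM in WT d8 and at 1.26 and 0.826 CPM in AMPK-KO d8. It was lower at d8 (adjusted p = 0.019) and did not pass the threshold at d0 (log2 fold change −2.43, SE 0.514, adjusted p = 0.0527). In the second table, normalized apart, *Prkaa1* stood at 73.1 to 104 CPM and *Prkaa2* at 0.453 to 1.73 CPM. In WT d0 *Prkaa2* stood at 1.69 and 1.79 CPM.

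Chemokines are small secreted proteins that guide migrating cells through G protein-coupled receptors, and cytokines such as interleukin 6 and macrophage colony-stimulating factor act through receptors linked to kinases. In injured muscle, myogenic and neighbouring cells release them, and neutrophils, monocytes and macrophages that clear debris follow. *Cxcl12* and its receptor *Cxcr4* also act on muscle progenitors themselves. Many of the inflammatory members are textbook targets of NF-kappaB, and *Cxcl10* and *Ccl5* also of the interferon pathway.

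Cell markers were checked in every library. The leukocyte genes *Adgre1* and *Tyrobp* were at 0 counts in all 16 libraries, and *Ptprc*, *Itgam* and *Cd3e* were at 2 counts or fewer. The 10 leukocyte markers together summed to between 8.82 and 25.9 CPM in the first table and between 25.3 and 44.2 CPM in the second, and most of this was *Cd14*, which other cells express too. The 9 muscle markers summed to between 1281 and 2572 CPM in the WT and AMPK-KO d0 libraries. At d8 they summed to 7837 and 10660 CPM in WT and to 3063 and 11970 CPM in AMPK-KO, so replicate 1 of AMPK-KO d8 stood far below replicate 2. The TET2 libraries summed to 1037, 1330, 1078 and 1455 CPM in TET2-WT and 8333, 4158, 2797 and 1248 CPM in TET2-S97E.

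Replicates differed widely in several groups, and 2 of them are described here. In AMPK-KO d8 replicate 1 the 15 interferon response genes summed to 1548 CPM, against 209.2 to 290.1 CPM in the other 7 libraries of the table. *Ifit1*, an antiviral effector, stood at 333 CPM there and 8.31 CPM in replicate 2, and *Ifnb1*, the gene of interferon beta, had 9 counts there and 0 in the other 15 libraries. Of the 8 members with at least 10 counts in an AMPK-KO d8 library, 7 differed by over 2-fold between the pair, all higher in replicate 1. The same held for 6 of 8 in WT d8 (5 higher in replicate 1) and 4 of 8 in WT d0 (3 higher). In TET2-WT clone 2 it held for 4 of 7, all higher in replicate 1, and in TET2-WT clone 1 and TET2-S97E clone 2 for 0. WT d0 replicate 1 had 251 CPM of *Cxcl12* against 26.6 CPM in replicate 2, and 5.27% of genes differed by over 4-fold between these libraries, against 2.34 to 4.90% in the other groups of the table. In the groups of the second table that share was 0.897 to 4.85%. With 2 libraries the data do not show which of WT d0 stands apart. With both WT d0 libraries edgeR called 14 of 100 list genes from d0 to d8 in WT, where 12.4% of all genes tested were called. Without replicate 2 all calls of that comparison given here were lost. The median log2 change was then 3.54 over the muscle markers (3.80 with both) and 2.83 over the fibroblast markers (3.33 with both). Over the members it was 0.11 (0.47 with both). Values without AMPK-KO d8 replicate 1 or a WT d0 library are given beside many of the results that they changed, and ranges over all left-out libraries follow at the end. The part of cell state or culture in them was not tested.

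Per length, *Csf1* was the most abundant member in 9 of 16 libraries and *Ccl7* in the other 7 (TPM, counts per exon length scaled to 1 common total). In WT d0 the order of mean TPM was *Csf1* (164.9), *Cxcl12* (61.7), *Ccl7* (31.9), *Cxcl5* (16.5), *Ccl2* (16.3), *Cxcl1* (5.89), *Cxcl14* (0.775), *Il6* (0.607) and *Ccl5* (0.281), with *Cxcl10* at 0. In that order *Ccl7* lay above *Cxcl5*, *Ccl2* above *Cxcl1*, and *Cxcl1* above *Cxcl14* in both libraries, whereas the range of *Cxcl12* overlapped with those of *Csf1* and *Ccl7*, and that of *Cxcl5* with that of *Ccl2*. The ranges of *Csf1* and *Ccl7* did not overlap. In WT d8 the leading genes were *Csf1* (204.7 TPM), *Cxcl12* (99.8 TPM), *Ccl7* (89.6 TPM) and *Cxcl14* (43.1 TPM), and these 4 did not overlap with their neighbours. In the 4 clones of the second table *Ccl7* and *Csf1* held the first 2 places and did not overlap in TET2-S97E clone 1 alone, at 245 and 85.4 TPM.

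**Figure D1:**
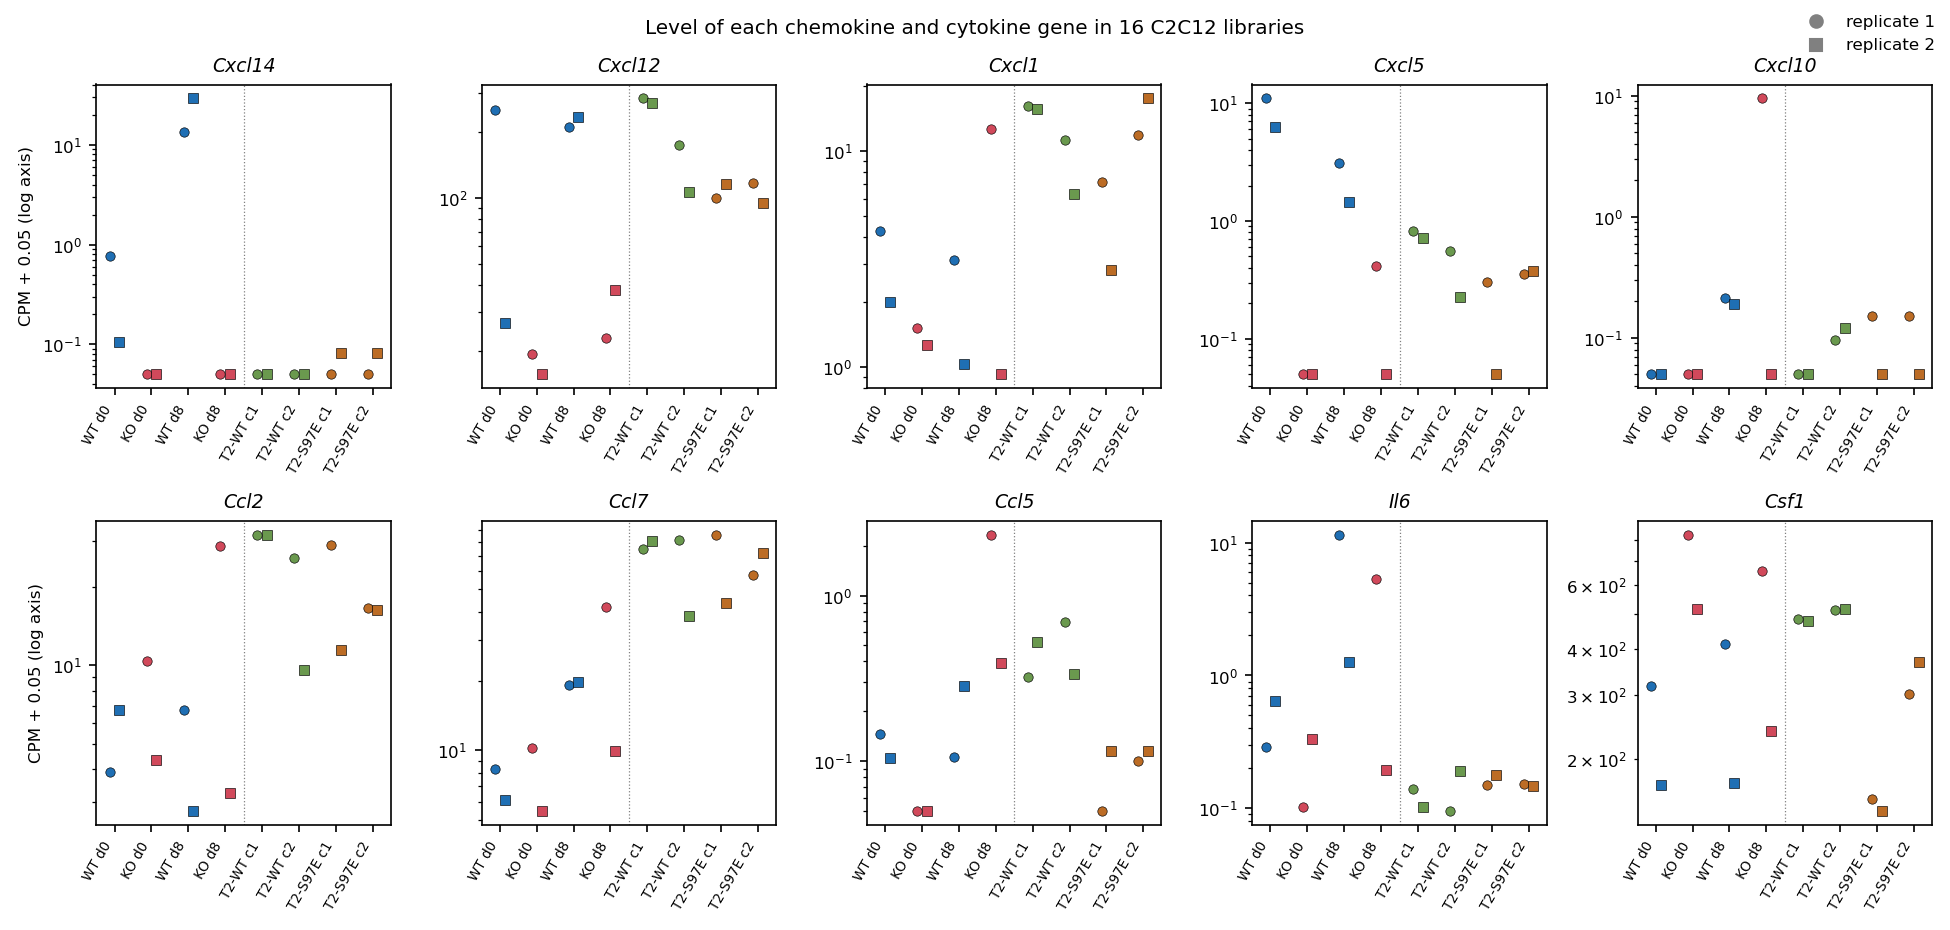
CPM of the 10 genes, plus 0.05 so that 0 can be drawn on the log axis, in each library of 8 groups. Circles are replicate 1 and squares replicate 2, KO is AMPK-KO, T2-WT and T2-S97E are the TET2 genotypes with clones c1 and c2, and the dotted line parts the tables. *Cxcl14* is high in WT d8 alone, *Cxcl5* is highest in WT d0, and *Cxcl10* is high in 1 library.

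*Cxcl14*, a chemokine that resting epithelia and muscle release and whose receptor is debated, separated the WT d8 libraries from all others (chr13:56288643-56296551, − strand, GRCm38). It stood at 13.6 and 29.2 CPM in WT d8 (246 and 623 counts) and at 0.723 and 0.0542 CPM in WT d0 (15 and 1 counts). It was at 0 counts in all 4 AMPK-KO libraries and at 0 or 1 count in all 8 TET2 libraries. Neither WT d8 library thus overlapped with any other. With AMPK-KO set to the floor of 3 counts per library, its level there was at least 160-fold lower at d8 and at least 2.62-fold lower at d0. The d0 bound rests on WT d0 replicate 1, since replicate 2 was itself under the floor, and the d0 difference was not called (adjusted p = 0.206, edgeR). WT d8 held 53.9 times the level of WT d0 (95% exact interval 33.0 to 94.8, which covers counting error only). Of the 16 counts behind WT d0, 15 were in replicate 1, and without it the ratio, against 1 count, was 406 (interval 72.7 to 16100). In the fit across all genes the log2 fold change from d0 to d8 in WT was 5.73 (SE 1.02, adjusted p = 0.0303, edgeR; 8.45 and 0.0202 without WT d0 replicate 1), and with DESeq2 the adjusted p was 0.0515. That call was lost with DESeq2 and without WT d0 replicate 2 (adjusted p = 0.0826) and without WT d8 replicate 1 (0.0874) or 2 (0.165). At d8 the fit called the lower level in AMPK-KO, and the call was lost without WT d8 replicate 1 (adjusted p = 0.084) or 2 (0.114) and without AMPK-KO d8 replicate 1 (0.0685). Among the genes whose pattern over the 8 libraries was nearest to *Cxcl14* were *Gja5* and *Slc6a2*, with root mean square differences of 0.786 and 0.833 on the log2 scale.

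*Cxcl12*, the ligand of *Cxcr4* that holds progenitor and stem cells in place, stood lower in every AMPK-KO library than in 3 of the 4 WT libraries. It lies on chromosome 6 (chr6:117168535-117181367, + strand, GRCm38). WT d0 had 251 and 26.6 CPM, AMPK-KO d0 19.4 and 15.6 CPM, WT d8 209.9 and 233 CPM, and AMPK-KO d8 22.7 and 37.7 CPM. All 4 AMPK-KO libraries lay between 15.6 and 37.7 CPM, and WT d0 replicate 2 fell in that range while the other 3 WT libraries stood above it. The log2 fold change of AMPK-KO against WT was −2.99 at d0 (SE 0.889, adjusted p = 0.123) and −2.87 at d8 (SE 0.88, adjusted p = 0.111), neither past the threshold of edgeR's test. DESeq2 called both. Without WT d0 replicate 1 the d0 value was −0.62 (adjusted p = 0.387), and without WT d0 replicate 2 it was −3.84 (adjusted p = 0.00735). From d0 to d8 in WT the log2 change was 0.67 (adjusted p = 0.623) with all libraries and 3.04 (adjusted p = 0.011) without WT d0 replicate 1. Among the TET2 libraries *Cxcl12* stood at 285, 270.0, 174 and 106 CPM in TET2-WT (clone 1 first) and at 99.6, 116, 117 and 94.2 CPM in TET2-S97E. Its means were 209 ± 84.3 CPM in TET2-WT and 107 ± 11.5 CPM in TET2-S97E (SD, n = 4). The 3 highest libraries were all TET2-WT, and the fourth TET2-WT library fell among those of TET2-S97E. The log2 fold change was −0.96 (SE 0.277, adjusted p = 0.0693, edgeR), and it passed the threshold without TET2-WT clone 2 replicate 2 (−1.18, adjusted p = 0.0109). With counts summed per clone edgeR called no gene of the table, *Cxcl12* included.

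Both receptors of *Cxcl12* were expressed. *Cxcr4*, the signalling receptor, stood at 35.8 and 8.95 CPM in WT d0, 5.44 and 5.38 CPM in AMPK-KO d0, 46.1 and 60.9 CPM in WT d8, and 28.5 and 30.9 CPM in AMPK-KO d8. It was higher at d8 than at d0 in AMPK-KO (log2 fold change 2.46, SE 0.578, adjusted p = 0.0436, and 0.0833 without AMPK-KO d8 replicate 1). In WT the change from d0 to d8 was 1.25 (adjusted p = 0.17), with 2.56 (adjusted p = 0.0106) without WT d0 replicate 1 and 0.59 (0.242) without replicate 2. *Ackr3*, which takes up *Cxcl12* without G protein signalling, stood at 62.7 and 88.1 CPM in WT d8 against 12.5 and 15.98 CPM in AMPK-KO d8, and it was lower in AMPK-KO (−2.41, SE 0.426, adjusted p = 0.0258). Without AMPK-KO d8 replicate 1 that value was −2.22 (adjusted p = 0.125). At d0 it stood at 66.7 and 138 CPM in WT and 21.9 and 38.4 CPM in AMPK-KO, which did not overlap and were not called, and without WT d0 replicate 1 the value was −2.20 (adjusted p = 0.0452), against −1.14 (0.155) without replicate 2. At d0 *Cxcr4* was lower in AMPK-KO without WT d0 replicate 2 (−2.72, adjusted p = 0.00735), and its value was −0.73 (0.222) without replicate 1. The TET2-S97E clones differed from each other in both receptors. *Cxcr4* stood at 127 and 121 CPM in clone 1 and 11.2 and 34.3 CPM in clone 2, and *Ackr3* at 65.0 and 49.7 CPM in clone 1 and 5.76 and 7.36 CPM in clone 2. Both were lower in clone 2 (log2 fold changes −2.43 and −3.12, adjusted p = 0.011 and 0.000582), while *Cxcl12* differed by −0.03 between these clones (SE 0.235).

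**Figure D2:**
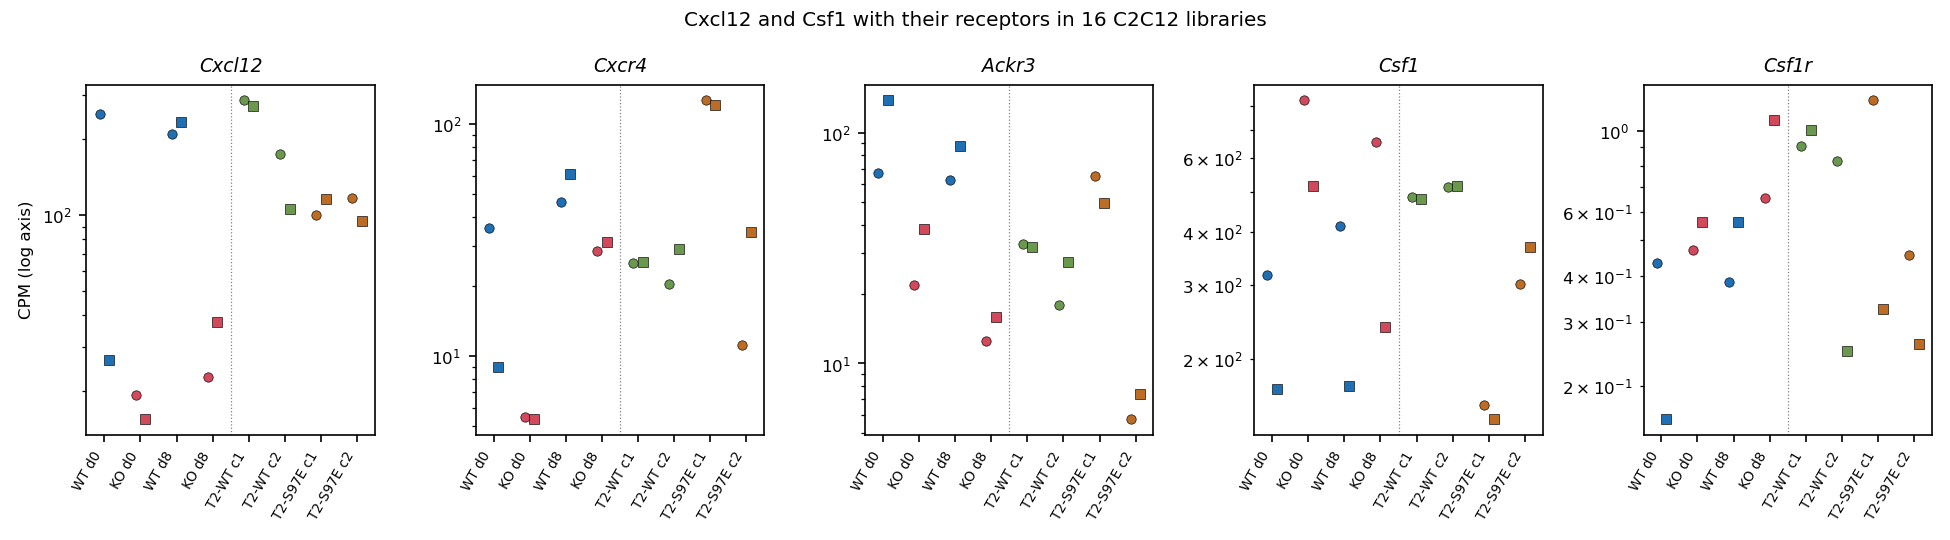
CPM on log axes of *Cxcl12* with its receptors *Cxcr4* and *Ackr3*, and of *Csf1* with its receptor *Csf1r*, in each of 16 libraries, with symbols as in the plot of all members. AMPK-KO libraries lie low for *Cxcl12* and *Ackr3* at both days, and the TET2-S97E clones part in *Cxcr4*, *Ackr3* and *Csf1*.

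*Cxcl5* and *Cxcl1* attract neutrophils through *Cxcr2*, which had 0 counts in all 16 libraries, and they lie 129616 bases apart on chromosome 5 (GRCm38). *Cxcl5* (chr5:90759360-90761624, + strand) stood at 10.9 and 6.18 CPM in WT d0 (227 and 114 counts) and at 0 counts in both AMPK-KO d0 libraries. It stood at 3.03 and 1.41 CPM in WT d8 and 0.367 and 0 CPM in AMPK-KO d8. WT lay above AMPK-KO in every library at both days. The AMPK-KO d0 level was at least 57.6-fold lower (adjusted p = 0.0334, edgeR), and DESeq2 called it too. Leaving out any 1 of the 4 d0 libraries ended that call, with adjusted p from 0.0546 to 0.16. At d8 the log2 fold change was −3.48 (SE 1.06, adjusted p = 0.123), and without AMPK-KO d8 replicate 1, the library that held all AMPK-KO counts of that day, the level was at least 15.2-fold lower (adjusted p = 0.0727). In the second table its counts were 17, 25, 11 and 5 in TET2-WT and 5, 0, 6 and 10 in TET2-S97E, a ratio of 2.54 (exact interval 1.52 to 4.41, counting error only), and the genotypes overlapped. The nearest patterns to *Cxcl5* in the first table were those of *Bcl6b*, *Zfpm2* and *Tbc1d9* (root mean square differences 0.538, 0.672 and 0.714).

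*Cxcl1* (chr5:90891241-90893115, + strand) did not follow its neighbour. It stood at 4.20 and 1.95 CPM in WT d0, 1.47 and 1.22 CPM in AMPK-KO d0, 3.09 and 0.985 CPM in WT d8, and 12.5 and 0.874 CPM in AMPK-KO d8. The highest and the lowest of the 8 values both came from AMPK-KO d8, a 14.3-fold gap. The log2 fold change at d8 was 1.73 (SE 1.1, adjusted p = 0.397) with both libraries and −1.19 without replicate 1. The TET2 libraries held 16.1, 15.5, 11.2 and 6.28 CPM in TET2-WT and 7.15, 2.75, 11.8 and 17.5 CPM in TET2-S97E, where the genotypes overlapped. Within TET2-S97E clone 2 lay above clone 1 (log2 fold change 1.58, SE 0.441, adjusted p = 0.0692, edgeR; DESeq2 called it).

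The sequence before the start of a gene is where NF-kappaB and interferon factors often bind. For 6 of the 10 members RefSeq on GRCm38.p6 gave 250 bases before the start. They are shown for 4 of these, for *Cxcl10*, *Cxcl1* and *Il6* because of their large gaps between the AMPK-KO d8 libraries and for *Cxcl14* because of its restriction to WT d8. Both strands were searched for TATAAA, for the interferon-stimulated response element, read as GAAA and a second GAAA with any 2 bases between them, and for the kappaB consensus, and capitals mark matches. *Cxcl10* (chr5:92348890-92349139, − strand) held 1 interferon element and 2 kappaB matches, *Cxcl1* (chr5:90890995-90891244, + strand) 2 kappaB matches on opposite strands that overlap, *Il6* (chr5:30012864-30013113, + strand) 1 kappaB match, and *Cxcl14* (chr13:56296552-56296801, − strand) 1 interferon element.
Cxcl10: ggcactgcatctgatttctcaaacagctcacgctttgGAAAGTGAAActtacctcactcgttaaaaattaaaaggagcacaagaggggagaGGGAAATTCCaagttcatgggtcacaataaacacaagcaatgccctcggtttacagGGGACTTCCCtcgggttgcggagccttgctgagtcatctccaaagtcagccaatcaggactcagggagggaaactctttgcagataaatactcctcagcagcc
Cxcl1: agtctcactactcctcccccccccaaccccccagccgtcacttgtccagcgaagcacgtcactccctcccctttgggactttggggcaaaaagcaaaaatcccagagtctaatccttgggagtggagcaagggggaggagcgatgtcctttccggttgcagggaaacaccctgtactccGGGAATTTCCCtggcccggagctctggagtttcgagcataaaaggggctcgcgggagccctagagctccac
Il6: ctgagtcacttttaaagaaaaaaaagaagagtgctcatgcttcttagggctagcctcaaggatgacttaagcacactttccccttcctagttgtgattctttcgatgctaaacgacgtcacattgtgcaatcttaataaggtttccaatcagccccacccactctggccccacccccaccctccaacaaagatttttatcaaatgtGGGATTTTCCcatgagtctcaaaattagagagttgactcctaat
Cxcl14: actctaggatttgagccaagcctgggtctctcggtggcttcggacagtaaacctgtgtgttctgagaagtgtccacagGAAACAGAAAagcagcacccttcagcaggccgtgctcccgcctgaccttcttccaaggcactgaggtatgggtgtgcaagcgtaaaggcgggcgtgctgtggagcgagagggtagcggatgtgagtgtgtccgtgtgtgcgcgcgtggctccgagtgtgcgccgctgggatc
Of the other promoters, that of *Csf1* held 1 kappaB match and that of *Cxcl12* none of the 3 motifs, and TATAAA was in none of the 6. Among 32817 promoters of that table, 2.97% held the interferon element, 3.90% the kappaB consensus and 12.4% TATAAA. A match shows only that the letters are there.

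*Cxcl10* (chr5:92346638-92348889, − strand, GRCm38), which draws activated T cells through *Cxcr3*, was read in a single library. Its counts were 0 in both WT d0 and both AMPK-KO d0 libraries, 3 and 3 in WT d8, and 233 and 0 in AMPK-KO d8. The 233 counts, 9.51 CPM, were all in replicate 1, the library with high interferon response genes. No ratio of the groups is given, since WT d8 lay at the floor of 3 counts in both libraries and AMPK-KO d8 had no count without replicate 1. In the second table it had at most 2 counts in any library, which is not detected. *Cxcr3* had 1 count in all 16 libraries together.

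*Ccl5* (chr11:83525778-83530518, − strand, GRCm38), a chemokine for T cells and monocytes, stood high in the same library. Its counts were 2 and 1 in WT d0, 0 and 0 in AMPK-KO d0, 1 and 5 in WT d8, and 56 and 7 in AMPK-KO d8. Replicate 1 of AMPK-KO d8 was at 2.28 CPM and every other library of the table at 0.34 CPM or less. The ratio of AMPK-KO d8 to WT d8 was 9.19 (exact interval 3.99 to 26.0, counting error only), on 63 and 6 counts, and without AMPK-KO d8 replicate 1 it was 2.24 (interval 0.643 to 8.05), which includes equal levels. Neither *Ccl5* nor *Cxcl10* passed the filter on low counts. Among the TET2 libraries *Ccl5* had 6, 18, 14 and 8 counts in TET2-WT and 0, 2, 1 and 2 in TET2-S97E. Every TET2-WT library was above every TET2-S97E library, and all of TET2-S97E lay under the floor of 3 counts. The pooled counts, 46 against 5, gave a ratio of 8.48 (exact interval 3.38 to 27.3, counting error only), which rests on those 5 counts. *Ccl5* did not pass the filter of that comparison.

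**Figure D3:**
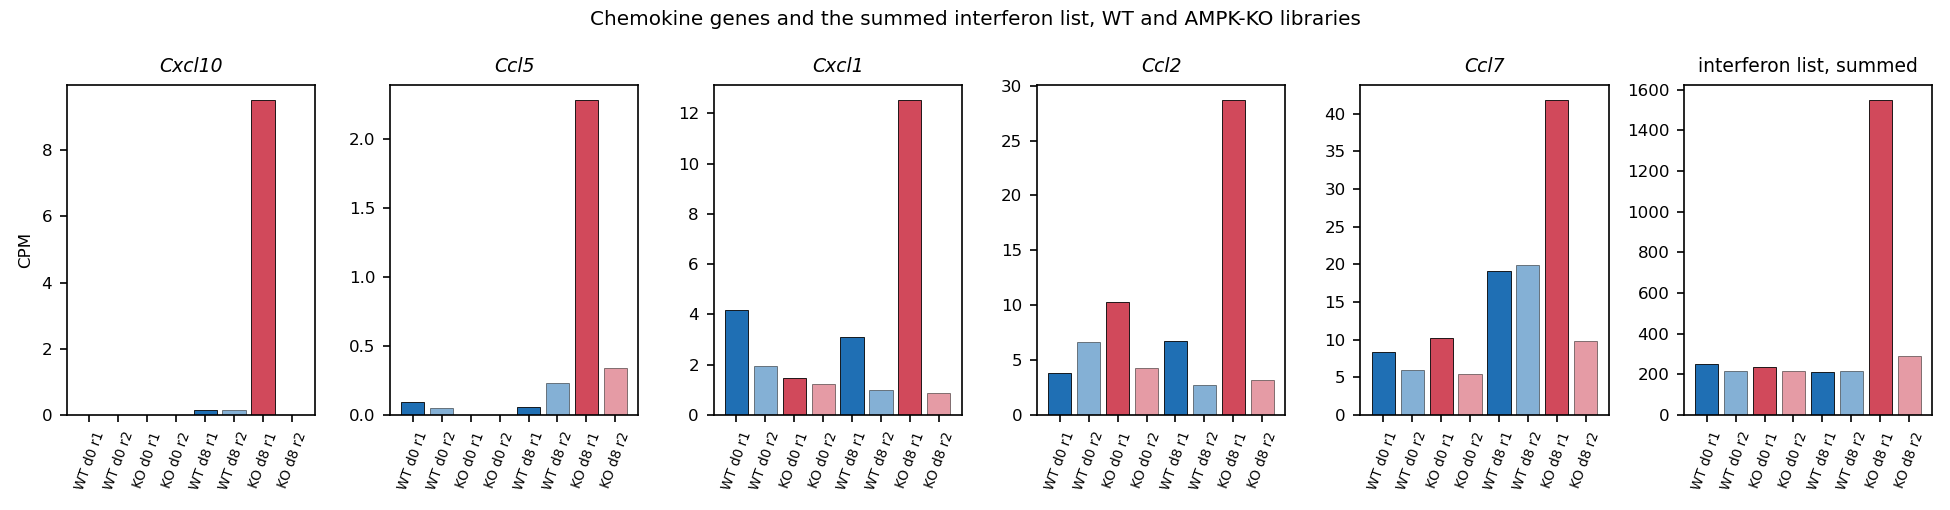
CPM, on linear axes from 0, of *Cxcl10*, *Ccl5*, *Cxcl1*, *Ccl2* and *Ccl7* and the summed CPM of the 15 interferon response genes in the 8 WT and AMPK-KO libraries, with 1 bar per library and replicates as r1 and r2. AMPK-KO d8 replicate 1 is the highest of 8 in every panel, since the members drawn are those that were highest there. *Cxcl14*, *Cxcl12*, *Cxcl5*, *Il6* and *Csf1* were not highest in that library and are not drawn.

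*Ccl2* and *Ccl7* recruit monocytes through *Ccr2*, which had at most 1 count in any library, and they are neighbours on chromosome 11 (GRCm38) with 8258 bases between them (chr11:82035571-82037453 and chr11:82045712-82047525, both + strand). *Ccl2* stood at 3.86 and 6.67 CPM in WT d0, 10.3 and 4.30 CPM in AMPK-KO d0, 6.72 and 2.72 CPM in WT d8, and 28.7 and 3.21 CPM in AMPK-KO d8. *Ccl7* stood at 8.30 and 6.02 CPM in WT d0, 10.2 and 5.42 CPM in AMPK-KO d0, 19.1 and 19.8 CPM in WT d8, and 41.8 and 9.86 CPM in AMPK-KO d8. WT and AMPK-KO overlapped at both days for both genes. Per length *Ccl7* exceeded *Ccl2* in 16 of 16 libraries, by 1.28 to 10.4 times (median 4.14, TPM). At d8 the log2 fold changes of AMPK-KO against WT were 1.76 for *Ccl2* (SE 0.975, adjusted p = 0.33) and 0.41 for *Ccl7* (SE 0.617, adjusted p = 0.738), and without AMPK-KO d8 replicate 1 they were −0.54 and −0.96. From d0 to d8 *Ccl7* changed by 1.44 in WT (SE 0.636, adjusted p = 0.174) and 1.73 in AMPK-KO (SE 0.638, adjusted p = 0.132, edgeR; DESeq2 called the latter). Without AMPK-KO d8 replicate 1 the latter was 0.35 (adjusted p = 0.677). In the second table *Ccl2* ran from 9.55 to 31.6 CPM in TET2-WT and from 11.4 to 28.9 CPM in TET2-S97E. There *Ccl7* ran from 38.1 to 82.0 CPM and from 43.5 to 86.1 CPM. The genotypes overlapped in both, with log2 fold changes of −0.43 (SE 0.385) and −0.09 (SE 0.271).

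*Il6* (chr5:30013114-30019981, + strand, GRCm38), a cytokine that contracting muscle releases and that signals through *Il6st*, was low in myoblasts. It stood at 0.241 and 0.596 CPM in WT d0, 0.0523 and 0.281 CPM in AMPK-KO d0, 11.4 and 1.22 CPM in WT d8, and 5.30 and 0.146 CPM in AMPK-KO d8. Both WT d8 libraries were above both WT d0 libraries, but replicates differed by 9.35-fold in WT d8, and AMPK-KO d8 had 130 counts in replicate 1 and 3, the floor, in replicate 2. The log2 change from d0 to d8 was 3.91 in WT (SE 1.65, adjusted p = 0.16) and 3.96 in AMPK-KO (SE 1.78, adjusted p = 0.197). DESeq2 called both. Without AMPK-KO d8 replicate 1 the second was −0.21. In the 8 TET2 libraries *Il6* had 1 to 4 counts.

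Among 17 genes of the *Il6* family and its signalling, 16 were tested. The highest mean in the first table was that of the shared receptor *Il6st*, at 103.5 to 341 CPM. At d0 none was called in AMPK-KO against WT, and all 16 were below 0 (median log2 fold change −0.73, against −0.00 over all genes tested), where without WT d0 replicate 1 there were 13 of 16 (median −0.43) and without replicate 2 all 16 (−0.90, 2 called). At d8, 14 of 16 were below 0 (median −0.52, against 0.04; 13 of 16 and −0.79 without AMPK-KO d8 replicate 1), and 1 was called, *Lif*, a family member that keeps myoblasts dividing. *Lif* stood at 62.2 and 30.6 CPM in WT d8 and 7.87 and 3.16 CPM in AMPK-KO d8 (log2 fold change −3.07, SE 0.524, adjusted p = 0.0233), and the call held without AMPK-KO d8 replicate 1 (adjusted p = 0.0355). From d0 to d8 in WT *Lif* (2.55), *Stat3* (1.17), the transcription factor of the pathway, and *Socs3* (1.68), its feedback inhibitor, were higher (adjusted p = 0.0258, 0.0165 and 0.0344). In AMPK-KO *Stat3* (1.46) and *Ctf1* (1.76), a heart and muscle cytokine of the family, were higher (adjusted p = 0.0209 and 0.0291). The adjusted p of *Socs3* was 0.08 without WT d0 replicate 1 and 0.169 without replicate 2, those of *Lif* and *Stat3* were 0.149 and 0.0921 without replicate 2, and that of *Ctf1* 0.0843 without AMPK-KO d8 replicate 1. In TET2-S97E *Il6ra*, the ligand-binding receptor, was lower (−0.94, SE 0.147, adjusted p = 0.00956; 0.305 with counts summed per clone), the single call among 14 genes tested.

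*Csf1* (chr3:107741048-107760469, − strand, GRCm38), the growth factor of macrophages, was expressed strongly in every library. It stood at 316 and 169 CPM in WT d0, 824 and 516 CPM in AMPK-KO d0, 414 and 172 CPM in WT d8, and 657 and 238 CPM in AMPK-KO d8. At d0 both AMPK-KO libraries were above both WT libraries. At d8 the groups overlapped, though each AMPK-KO library was above the WT library of the same replicate number. The log2 fold change was 1.46 at d0 (SE 0.613, adjusted p = 0.235) and 0.61 at d8 (SE 0.603, adjusted p = 0.59), neither called by edgeR or DESeq2. With the replicate number as a block, a pairing that the labels do not state, the d0 value was 1.51 (adjusted p = 0.0215, edgeR). Without AMPK-KO d8 replicate 1 the d8 value was −0.28 (adjusted p = 0.85). In the second table it stood at 486, 479, 513 and 514 CPM in TET2-WT and at 155, 144, 301 and 368 CPM in TET2-S97E. All TET2-WT libraries were above all TET2-S97E libraries, with means of 498 ± 18.5 CPM and 242 ± 110 CPM (SD, n = 4). The log2 fold change was −1.04 (SE 0.289, adjusted p = 0.0633, edgeR), which DESeq2 called. The value was −1.31 without TET2-S97E clone 2 replicate 2 (adjusted p = 0.0247, edgeR). With counts summed per clone edgeR called no gene of the table, *Csf1* included. The TET2-S97E clones did not overlap, and clone 2 was higher by 1.16 on the log2 scale (SE 0.163, adjusted p = 0.00386), while the TET2-WT clones differed by 0.09 (SE 0.16). Its receptor *Csf1r* had 3 to 38 counts per library. *Il34*, the other ligand of that receptor, stood at 8.40 to 29.8 CPM in the first table and 23.2 to 39.9 CPM in the second. The nearest patterns to *Csf1* in the first table were those of *4833427G06Rik*, *Kctd11* and *Nab2* (root mean square differences 0.252, 0.273 and 0.299).

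Counted over the members, few passed the test. In AMPK-KO against WT at d0, 8 had a fold change and 1 was called lower (*Cxcl5*) and none higher, where 2.83% of the 14329 genes tested were called lower and 0.698% higher. At d8 it was again 1 of 8, lower (*Cxcl14*), where 3.98% of genes were called lower and 1.36% higher. Their median log2 fold change was −1.23 at d0 (all genes −0.00) and −0.40 at d8 (all genes 0.04). Without WT d0 replicate 1, 7 members had a fold change at d0, none was called and the median was −0.55, and without WT d0 replicate 2 it was 8, 1 and −1.06. At d8, 4 of the 8 members lay above 0 and 4 below, and without AMPK-KO d8 replicate 1 all 8 lay below 0, with a median of −1.86 and none called. At an unadjusted p under 0.05 there were 4 at d0 and 3 at d8, and DESeq2 called 2 and 3. Of 100 genes tested in the other lists, 28 at d0 and 45 at d8 had an unadjusted p under 0.05. Shares of all genes at these settings are not given here, so these counts are not set against a background.

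From d0 to d8 in WT 1 of 8 was called, higher (*Cxcl14*), where 5.78% of genes were called higher and 6.58% lower, and the members' median was 0.47 (all genes 0.01). Without WT d0 replicate 1 the median was 1.22 and 2 of 8 were called, *Cxcl14* and *Cxcl12*, and without replicate 2 the median was 0.11 and none was called. In AMPK-KO 0 of 7 were called by edgeR, where 4.81% of genes were called higher and 4.95% lower. At an unadjusted p under 0.05 there was 1, against 37 of 100 genes of the other lists, and DESeq2 called 2. The members' median there was 1.73, or 1.13 with *Cxcl5* at its bound (all genes 0.02). Without AMPK-KO d8 replicate 1, 6 members had a fold change, of which 2 lay above 0 and 4 below, with a median of −0.41. For the difference of the AMPK-KO effect between d8 and d0, edgeR called 0 of 7 members and 0.0% of genes higher and 0.0% lower, with 1 member at an unadjusted p under 0.05 and none called by DESeq2. The effects at d8 and d0 are thus not shown to differ by this test for any of the 7, though with no filter on low counts 2 were called, *Cxcl1* and *Cxcl5*. With no filter 449 genes of the whole table were called.

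In TET2-S97E against TET2-WT edgeR called 0 of the 5 members that passed the filter, where 3.71% of the 13433 genes tested were called higher and 3.28% lower. At an unadjusted p under 0.05 there were 2, *Cxcl12* and *Csf1*, and DESeq2 called both. Over all genes 3152 of 13433 had an unadjusted p under 0.05, and DESeq2 called 1825. All 5 members lay below 0, with a median of −0.43 (all genes 0.01). These tests take libraries of 1 clone as replicates. With counts summed per clone, 2 clones against 2, edgeR called 0 of 15126 genes tested (1575 at an unadjusted p under 0.05), and a limma-voom fit that took clone for a random effect called 166. Of the 10 list genes named here as higher or lower in TET2-S97E, the sums left none called (adjusted p = 0.305 to 0.424) and limma-voom called *Il6ra* and *Myog*, in fits added after the data were seen. Between the clones of TET2-WT 0 of 7 were called, where 0.463% of 14459 genes were called higher in clone 2 and 0.394% lower, with *Cxcl12* at an unadjusted p under 0.05 and called by DESeq2. Between the TET2-S97E clones 1 of 6 was called, higher in clone 2 (*Csf1*), where 3.35% of genes were called higher and 2.82% lower.

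**Figure D4:**
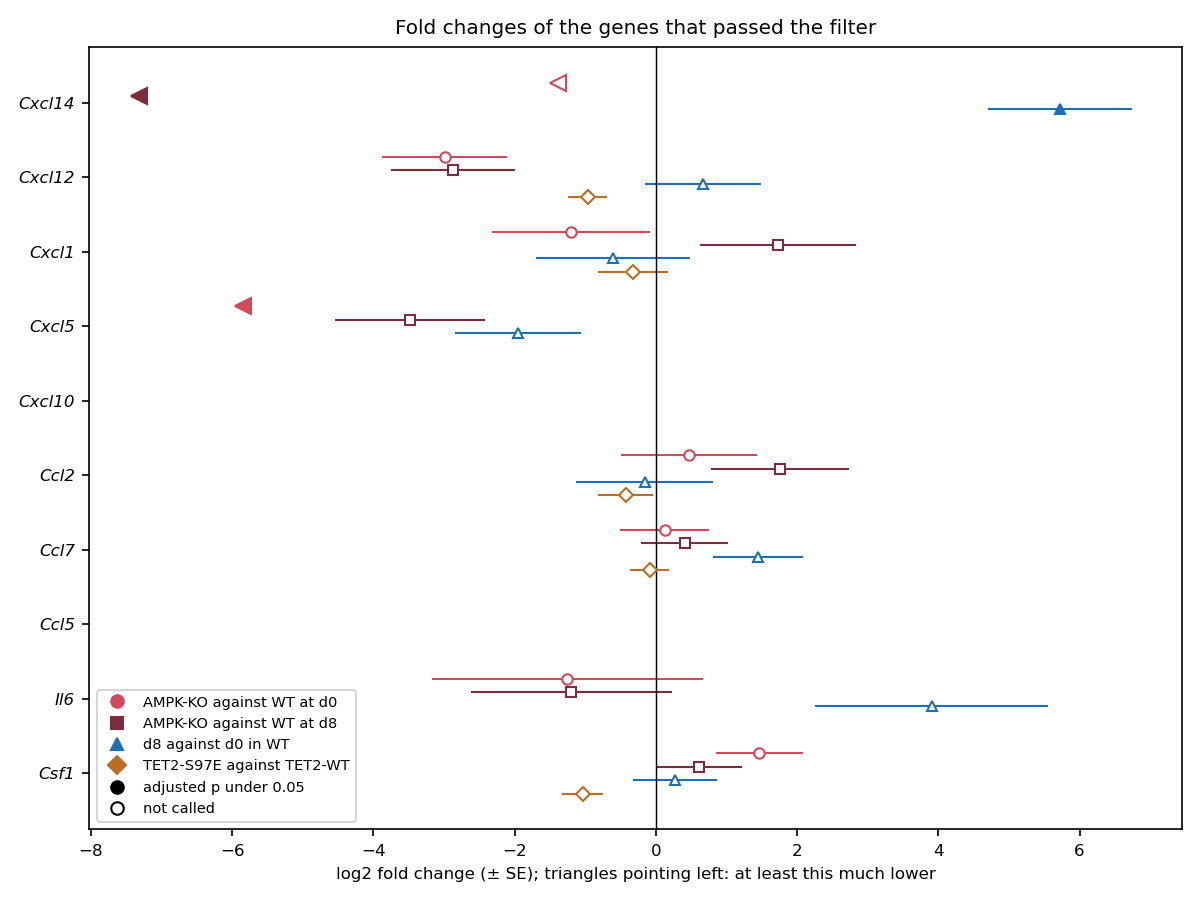
Log2 fold changes of the members that passed the filter, with SE as bars, in 4 comparisons. Filled symbols had an adjusted p under 0.05, open symbols did not, and large triangles that point left are lower bounds for *Cxcl14* and *Cxcl5*, which were at 0 counts in AMPK-KO. *Cxcl10* and *Ccl5* did not pass the filter and have no symbol.

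Other ligands were mostly silent. Of 10 other CXC ligands 3 were tested in the first table, and none was called in AMPK-KO against WT at either day (median log2 fold change −1.57 at d0 and 0.77 at d8, against −0.00 and 0.04 over all genes). Without WT d0 replicate 1 the median at d0 was −0.84 and without replicate 2 −0.96, and without AMPK-KO d8 replicate 1 that at d8 was −3.86, with 1 gene above 0 and 2 below. *Cxcl13*, which guides B cells and had the highest mean of them, stood at 0 to 9.67 CPM there. It was higher in TET2-S97E, at 11.1, 5.02, 3.14 and 0.489 CPM against 0.181, 0.185, 0.137 and 0.674 CPM in TET2-WT (log2 fold change 4.03, SE 0.902, adjusted p = 0.0298; 0.335 with counts summed per clone), and 1 library of TET2-S97E fell below 1 of TET2-WT. Of 19 other CC, CX3C and XC ligands 5 were tested and none was called between WT and AMPK-KO at d8 or between TET2 genotypes. Of these *Cx3cl1*, the membrane-bound ligand of *Cx3cr1*, stood at 106 and 22.2 CPM in WT d8 and 44.3 and 14.6 CPM in AMPK-KO d8, and *Ccl9* was higher in TET2-S97E clone 2 than in clone 1 (1.84, adjusted p = 0.0128). Of 23 chemokine receptors 8 were tested in the first table, with *Ackr3* at d8 the single call in AMPK-KO against WT.

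The NF-kappaB pathway was read from 22 genes, all tested in the first table. In AMPK-KO against WT 19 of 22 were below 0 at d0 (median −0.33, against −0.00 over all genes) and 17 of 22 at d8 (median −0.25, against 0.04). Without WT d0 replicate 1 there were 16 of 22 at d0 (median −0.21), without replicate 2 there were 18 (−0.56), and without AMPK-KO d8 replicate 1 there were 21 of 22 at d8 (median −0.39). *Bcl3*, a nuclear partner of the p50 and p52 subunits, was called lower at both days. It had 34 and 29 counts in WT d0, 1 and 0 in AMPK-KO d0, 118 and 87 in WT d8, and 0 and 0 in AMPK-KO d8, and its level at d8 was at least 39.5-fold lower (adjusted p = 0.00838). At d0 the adjusted p was 0.0255, with 0.0679 without WT d0 replicate 1 and 0.0547 without replicate 2. *Tnfaip3*, an inhibitor of the pathway, was lower at d8 (−1.42, SE 0.298, adjusted p = 0.0416; −1.69 and adjusted p = 0.083 without AMPK-KO d8 replicate 1). *Relb*, a subunit, was higher at d8 in WT (1.23) and in AMPK-KO (1.26), the latter with an adjusted p of 0.0457, and 0.138 without AMPK-KO d8 replicate 1. In TET2-S97E *Nfkb1*, the gene of p50, was lower (−0.76, SE 0.153, adjusted p = 0.0217; 0.356 with counts summed per clone), the single call among 21 genes.

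The 15 interferon response genes gave 14 that were tested in the first table. At d8 all 14 were above 0 in AMPK-KO against WT (median 2.64, against 0.04 over all genes), and *Ifit1* (7.72) and *Irf1* (1.02), an activating transcription factor, were called. Without AMPK-KO d8 replicate 1 none of the 14 was called, 11 were above 0 and the median was 0.46. From d0 to d8 in AMPK-KO all 14 were above 0 and 4 were called, *Irf7*, *Ifit1*, *Isg15* and *Gbp2*, and without that library 2 were called, *Ifit1* (3.82) and *Gbp2* (2.31). At d0 7 were above 0 and 7 below, and none was called (median −0.07). In TET2-S97E against TET2-WT none of 13 was called (median 0.08). *Ifnar1*, a subunit of the interferon receptor, had the highest mean of the list in both tables, at 81.4 to 110.3 CPM and 89.5 to 115 CPM.

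Between the TET2-S97E clones 17 of the 77 genes tested in the 8 lists of other ligands, cytokines, receptors and signalling genes were called, 13 higher in clone 2 and 4 lower (16.9% and 5.19%, against 3.35% and 2.82% of all genes). Higher in clone 2 were the ligands *Cxcl15* (log2 fold change 5.03) and *Cx3cl1* (1.22), the cytokines *Il1rn* (3.39), *Il7* (4.91) and *Il16* (4.12), the receptor *Lifr* (2.32), *Jak2* (0.72), *Socs3* (0.91), *Tlr3* (1.45) and the interferon response genes *Ifit3* (3.07), *Gbp2* (2.71) and *Irf1* (0.95). Lower in clone 2 were *Csf3* (−2.70), the growth factor of neutrophils, and the interleukin 1 receptor *Il1r1* (−1.29). The TET2-WT clones gave no call in these lists. Cell type markers differed between the same TET2-S97E clones, and their part in these values was not tested. Of the 9 muscle markers *Myod1* (−2.36), *Des* (−1.59) and *Cdh15* (−1.41) were lower in clone 2 (median −1.59 over the list). Of 4 fibroblast markers tested *Dcn* (1.92) and *Lum* (3.51) were higher in clone 2, while *Pdgfra* (−0.55) and *Col1a1* (−0.01) lay below 0 and were not called. Of 3 leukocyte markers tested *Lyz2* (3.01) was higher, and the other 2 lay below 0 and were not called (list median −0.21). The endothelial marker *Cdh5* was lower, at 14 and 43 counts in clone 1 and 0 and 1 in clone 2. Markers differed between the TET2-WT clones too, where *Col1a1* (2.91, adjusted p = 0.0368), *Lum* (2.88, 0.0465) and *Myod1* (1.32, 0.0388) were higher in clone 2.

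Among the 19 other cytokines, *Il12a*, a subunit of interleukin 12, stood at 7.22 and 8.26 CPM in WT d8 and 0.734 and 0.972 CPM in AMPK-KO d8. It was lower in AMPK-KO (−3.18, SE 0.378, adjusted p = 0.00812; −2.97 and 0.0548 without AMPK-KO d8 replicate 1), the single call of 10 tested. *Mif*, which slows macrophage migration, had the highest mean, at 172 to 642 CPM in the first table. From d0 to d8 in WT 1 of 10 tested was called higher, *Il12a* (2.44, adjusted p = 0.0146, edgeR). Called lower were 2, *Il1rn* (−1.56, adjusted p = 0.0176) and *Mif* (−1.29, adjusted p = 0.0414). These calls were lost without WT d0 replicate 2. In TET2-S97E 1 of 9 tested was called, *Tnfsf12* (1.01, adjusted p = 0.0288; 0.415 with counts summed per clone), the gene of the cytokine TWEAK.

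Markers of cell state moved with the groups that these genes compare, and their part in the members' values was not tested. *Myog*, a regulator of myoblast fusion, stood at 29.5 and 19.6 CPM in WT d0 and 0.628 and 0.561 CPM in AMPK-KO d0, and it and *Myod1* were called lower in AMPK-KO (adjusted p = 0.0116 and 0.0147). At d8 none of the 9 muscle markers was called. The filament gene *Des*, with the highest mean over the table, ran from 1265 to 3215 CPM at d8, while the actin gene *Acta1* reached 6426 CPM in AMPK-KO d8 replicate 2. In TET2-S97E 5 of 9 were higher, *Myod1*, *Myog*, *Ckm*, *Acta1* and *Myh1*, with a median of 3.98 over the list (all genes 0.01), and with counts summed per clone none was called (adjusted p = 0.33 to 0.424). Of the 5 fibroblast markers *Thy1* had at most 4 counts in any library, and *Col1a1* (−4.11) and *Lum* (−3.98) were lower in AMPK-KO at d8 (adjusted p = 0.0223 and 0.0401, edgeR). Without AMPK-KO d8 replicate 1 these calls were lost, while the median of the list was −2.56, against −2.90 with all libraries. Between d0 and d8 *Dcn* (5.48, adjusted p = 0.0143, edgeR) and *Lum* (5.69, 0.0156) rose in WT, and *Dcn* (4.93, 0.0193) in AMPK-KO. Without WT d0 replicate 2 the WT values were not called, while the median of the list was 2.83, against 3.33 with all libraries. From d0 to d8 5 of 9 muscle markers were higher in WT (median 3.80) and 6 of 9 in AMPK-KO (median 6.87). The WT median was 4.11 without WT d0 replicate 1 and 3.54 without replicate 2, and without replicate 2 the WT calls were lost. The AMPK-KO median was 7.64 without AMPK-KO d8 replicate 1. The fibroblast list summed to 1364 and 2870 CPM in WT d8 and 312.7 and 509.7 CPM in AMPK-KO d8. Of the 5 endothelial markers *Tek* had the highest mean, at 0.875 to 9.38 CPM over the 16 libraries, and it was lower in TET2-S97E (−1.93, adjusted p = 0.0326; 0.354 with counts summed per clone). In these bulk libraries fewer cells of a type and less RNA per cell cannot be told apart.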

How the data were processed

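RNA-seq was measured in 16 C2C12 libraries. The submitters' processing notes name bcl2fastq 2.17, Trim Galore 0.4.5, STAR 2.5.3a and featureCounts 1.5.3, on mm10 (GRCm38) with GENCODE M12. The deposited values are raw read counts per gene, as the authors' counting gave them. Whether counting used strand is not given in the sources used here. Symbols and coordinates came from GENCODE M21 (49326 of 49585 identifiers matched) and promoters from RefSeq.

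Counts of each table were tested in R 4.3.3 with edgeR 4.0.16 (TMM, filterByExpr, quasi-likelihood test, Benjamini-Hochberg over all genes tested, threshold 0.05), with 1 mean per group, or per genotype for TET2-S97E against TET2-WT. With 2 against 2 libraries an exact permutation test cannot go below p = 0.33, and with 4 against 4 below 0.0286. DESeq2 1.42.0, limma 3.58.1, other filters, a replicate block and leaving out each library were alternatives. Scripts were tested on simulated data. Members and lists were chosen with earlier results of these data known. Named genes are all members, *Prkaa1* and *Prkaa2*, up to 4 called genes of each list with the lowest p, the most abundant gene of a list with no call, and the 3 genes with the nearest pattern to a called member (log2 CPM with a prior count of 2). A group at 0 counts was set to the floor of 3 counts per library for a bound. Exact intervals are Clopper-Pearson at 95%. A few genes that this rule names are not reported here. MeDIP-seq was not analysed here.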

Additional observations from a re-analysis of the deposited data

Results flagged for a closer look

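In 15 sets of 4 libraries of 1 TET2 genotype, each for 1 member, Dixon's ratio of the gap to the range marked 2 libraries as far from their fellows, above its 95% critical value. Chance marks about 1 set in 20. *Ccl7*, the monocyte chemokine, was at 38.1 CPM in TET2-WT clone 2 replicate 2, below the 74.8 to 82.0 CPM of the other 3 (ratio 0.836). *Il6* was at 0.13 CPM in TET2-S97E clone 1 replicate 2 (ratio 0.894), which is 4 counts, and the other 3 libraries of TET2-S97E had 2 or 3 counts.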

How the results depend on the processing

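Beyond the values below, scaling by DESeq2's size factors left the number of members called in every comparison within 1.5 times of edgeR's. With DESeq2's Wald test the members called were 2 in AMPK-KO against WT at d0, 3 at d8, 2 from d0 to d8 in AMPK-KO, 2 in TET2-S97E against TET2-WT, 1 between the TET2-WT clones and 2 between the TET2-S97E clones. With no filter on low counts they were 4, 7 and 5 (d0, d8, and d0 to d8 in WT), 8 from d0 to d8 in AMPK-KO, 2 for the difference of the AMPK-KO effect, 3 between TET2 genotypes, and 3 and 2 between the clones of TET2-WT and TET2-S97E, and the cause was not tested. Calls over the whole table also rose with no filter, to 2026 at d0 and 2503 at d8 (505 and 766 with it). From d0 to d8 they rose to 3293 in WT and 3039 in AMPK-KO (1771 and 1398 with it). For the difference of the effect they rose to 449 (0 with it). Between the clones they rose to 1627 in TET2-WT and 1680 in TET2-S97E (124 and 892 with it). Shares of all genes with no filter are not given here, so these member counts are not set against a background. With at least 10 counts required in every library, 0, 0 and 0 members were called at d0, at d8 and from d0 to d8 in WT. The called members were removed by that filter. With only the libraries of that day 2 were called at d8, the second being *Cxcl12* (−2.90, adjusted p = 0.0209).

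Leaving out 1 library at a time gave 0 to 1 members called at d0, 0 to 2 at d8, 0 to 2 from d0 to d8 in WT, 0 to 3 in AMPK-KO, 0 for the difference of the effect, 0 to 1 between TET2 genotypes, 0 to 1 between the TET2-WT clones and 1 to 2 between the TET2-S97E clones. The log2 fold changes that changed sign were those of members that were not called with all libraries. At d0 they ran from −0.30 to 0.95 for *Ccl2* and from −0.41 to 0.49 for *Ccl7*. At d8 they ran from −1.19 to 2.78 for *Cxcl1*, −0.54 to 2.57 for *Ccl2*, −0.96 to 1.07 for *Ccl7*, −5.36 to 1.18 for *Il6* and −0.28 to 1.40 for *Csf1*. From d0 to d8 in WT they ran from −0.17 to 3.04 for *Cxcl12*, −1.67 to 0.034 for *Cxcl1*, −0.97 to 0.33 for *Ccl2* and −0.53 to 0.77 for *Csf1*, and in AMPK-KO from −0.60 to 3.19 for *Cxcl1*, −1.18 to 1.95 for *Ccl2* and −0.21 to 5.57 for *Il6*. For the difference of the effect they ran from −2.24 to 0.93 for *Cxcl12*, −0.99 to 2.12 for *Ccl2*, −1.07 to 0.95 for *Ccl7* and −4.09 to 2.46 for *Il6*. Between TET2 genotypes *Ccl7* ran from −0.29 to 0.060. Between the TET2-WT clones *Ccl7* ran from −1.04 to 0.073 and *Ccl5* from −0.43 to 0.74, and between the TET2-S97E clones *Cxcl12* ran from −0.23 to 0.12, *Ccl2* from −0.82 to 0.52 and *Ccl7* from −0.42 to 0.57. Where an arm was left with 1 library, that library was assumed to vary like the other groups.

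Same-numbered libraries deviated from their group means with correlations over genes of 0.119 to 0.324 among WT and AMPK-KO groups and −0.0214 to 0.506 among TET2 clones, but nothing in the labels ties equal numbers together. With a replicate block 2 members were called at d0 (*Csf1* 1.51, adjusted p = 0.0215), 1 between the TET2-WT clones (*Cxcl12* −1.01, adjusted p = 0.0366) and 2 between the TET2-S97E clones (*Cxcl1* 1.70, adjusted p = 0.0346), and the block turned the sign of *Cxcl12* (−0.045) and *Il6* (−0.0020) in the difference of the effect and of *Ccl7* (0.084) between the TET2-S97E clones.

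Over the whole tables the genes called were 505 at d0 (17 to 2026 over the alternatives), 766 at d8 (107 to 2503), 1771 from d0 to d8 in WT (0 to 3293) and 1398 in AMPK-KO (0 to 3039). They were 0 for the difference of the effect (0 to 449), 938 between TET2 genotypes (0 with counts summed per clone, to 1825 with DESeq2), 124 between the TET2-WT clones (0 to 1627) and 892 between the TET2-S97E clones (488 to 1680). Depth limits *Cxcl10*, *Ccl5* and *Il6*, which had few counts in most libraries.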
